A study of Mus musculus with 34 samples.

Results

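The tumour suppressor p53 switches on a set of genes when DNA is damaged or cells are otherwise stressed, and 10 of its well known targets (Mdm2, Gdf15, Bbc3, Pmaip1, Ccng1, Sesn1, Trp53inp1, Phlda3, Bax and Zmat3) were followed in mouse CAD cells. The members were given as a list and were found by symbol among the 37310 gene identifiers of the count tables. They and the other gene lists were chosen with earlier results of these data known. Their shares beside those of all genes are therefore descriptions. CAD is a line of catecholaminergic neuroblastoma origin whose cells leave the cell cycle and grow processes when serum is taken away. The 28 polyA RNA-seq libraries fall into 13 groups from 3 experiments. In the first experiment, cells labelled mir-138 DKO (DKO is read as double knockout) and wild-type (WT) cells were measured 1 day after serum withdrawal and in 10% serum, with 2 libraries in each of the 4 groups. In the second, WT cells were measured 4 days after withdrawal and in serum, with 3 libraries each. The 4-day libraries carry the genotype mir-138 DKO in 1 field and WT in their titles, and were analysed as WT. The third used cells labelled DKO throughout, in 7 groups of 2 libraries: cells given the mimic of miR-138, that of miR-137, or pUC19 plasmid DNA, each 2 days after withdrawal and in serum, and cells in serum for which no transfection is named. The mimic dose was 3 nM, and withdrawal began 48 h after the transfection. How long after transfection the serum libraries were taken is not given here. In transfected cells, withdrawal and time since transfection therefore cannot be told apart. Whether the DKO cells are 1 clone is not stated, and the titles of the cells with no transfection read DKO_2 while those of the transfected cells read DKO. The libraries are not stated to be separate cultures, so p-values measure the spread between libraries, which may be technical.

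The p53 protein is kept low by Mdm2, a ubiquitin ligase whose own gene p53 activates, and Mdm4 blocks p53 alongside it. Once free, p53 binds paired decamers of DNA near its targets. Some targets stop the cell cycle (Cdkn1a, which encodes p21), some lead to apoptosis through the mitochondrion (the BH3-only proteins Bbc3, or PUMA, and Pmaip1, or NOXA, and the pore-forming Bax), and others restrain growth signalling or oxidative stress (Sesn1, Phlda3, Trp53inp1). Several are shared with other stress pathways. Bbc3 and Sesn1 are also known as FoxO targets, and Gdf15, a secreted cytokine, as a target of ATF4 and CHOP.

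The mimics used in the third experiment carry the mature miRNAs below, as RefSeq lists them (GRCm38.p6). Capitals mark the seed, bases 2 to 8, which pairs with target mRNAs. The sequences are shown because the members are compared between cells given one, the other or neither.
mmu-miR-138-5p: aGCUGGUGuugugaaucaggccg
mmu-miR-137-3p: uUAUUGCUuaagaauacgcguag
The mature miR-138 sequence lies at chr9:122682898-122682920 and chr8:94324312-94324334, and that of miR-137 at chr3:118433901-118433923, all on the plus strand. The 2 seeds differ, GCUGGUG against UAUUGCU.

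Promoter windows (250 bases before to 50 after each annotated start, RefSeq, GRCm38.p6) were at hand for 7 of the 10 members and were searched on both strands for the p53 response-element decamer. The 7 members had 11 windows between them, of which 4 held a perfect decamer (1 each of Bax, Ccng1, Mdm2 and Sesn1), against 8.36% of the 32851 windows searched. A full element, 2 decamers at most 13 bases apart with at most 1 mismatch, was found in 1 of the 11 windows, that of Ccng1, against 0.627% of all windows. Trp53inp1, Zmat3 and Pmaip1 were not searched. Cdkn1a, which is followed beside the members, held 2 matches to a full element in 1 window and 0 in its other window. Of these, the match with its decamers closest together is printed. The matches stand in capitals below, with 15 bases on each side, and are shown so that they can be set beside the levels that follow.
Ccng1: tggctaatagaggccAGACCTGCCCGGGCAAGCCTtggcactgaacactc
Cdkn1a: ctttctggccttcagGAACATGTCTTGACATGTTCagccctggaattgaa
Bax: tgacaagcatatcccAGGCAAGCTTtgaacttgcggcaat
Mdm2: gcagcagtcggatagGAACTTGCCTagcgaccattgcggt
Sesn1: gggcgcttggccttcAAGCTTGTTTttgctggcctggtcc
The stretches lie at chr11:40755447-40755496 (minus strand) for Ccng1, chr17:29090913-29090962 (plus) for Cdkn1a, chr7:45467075-45467114 (minus) for Bax, chr10:117710920-117710959 (minus) for Mdm2 and chr10:41887251-41887290 (plus) for Sesn1. They lie 195, 51, 201, 186 and 173 bases upstream of the start in that order. A match is a description of the letters and not a measured binding site.

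Library depth, as reads assigned to genes, was 22359075 to 41505181 for the 8 libraries of experiment 1, 19900317 to 28631969 for the 6 of experiment 2, and 12740836 to 25582125 for the 14 of experiment 3. Levels are CPM, counts scaled to library size within each experiment, and they are not compared between genes because transcript lengths were not used. Among the catecholaminergic and neuronal markers, Th reached at most 2.17 CPM and had no read in 4 libraries, and Slc18a2 had none in 19. The 8 markers used summed to 39.5 to 301 CPM in the libraries labelled DKO and to 1508 to 9573 CPM in WT libraries. Chgb alone reached 8643 CPM, so the sums do not stand for each marker. The 4 blood and immune markers summed to 0.17 to 2.29 CPM. Among them Ptprc and Cd3e had 0 counts in all 28 libraries, Lyz2 had none in 26, and Cd68 had reads in every library, 68 at most. The fibroblast, glial and endothelial markers summed to at most 38.1, 18.7 and 40.3 CPM. Reads assigned to the hairpin gene Mir138-1 were present in every library (0.503 to 10.9 CPM) and were at 5.93 to 10.9 CPM in the DKO cells of the first experiment, above the 0.558 to 1.37 CPM of its WT cells. In experiment 3 the cells labelled DKO had 0.945 to 2.88 CPM, and the WT cells of experiment 2 had 0.503 to 1.75 CPM. The labels do not say which bases were deleted, and polyA reads do not measure mature miR-138. The reads therefore do not settle the label, and the cells are called labelled DKO throughout. Mir138-2 had 0 counts in all 28 libraries.

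**Figure D1:**
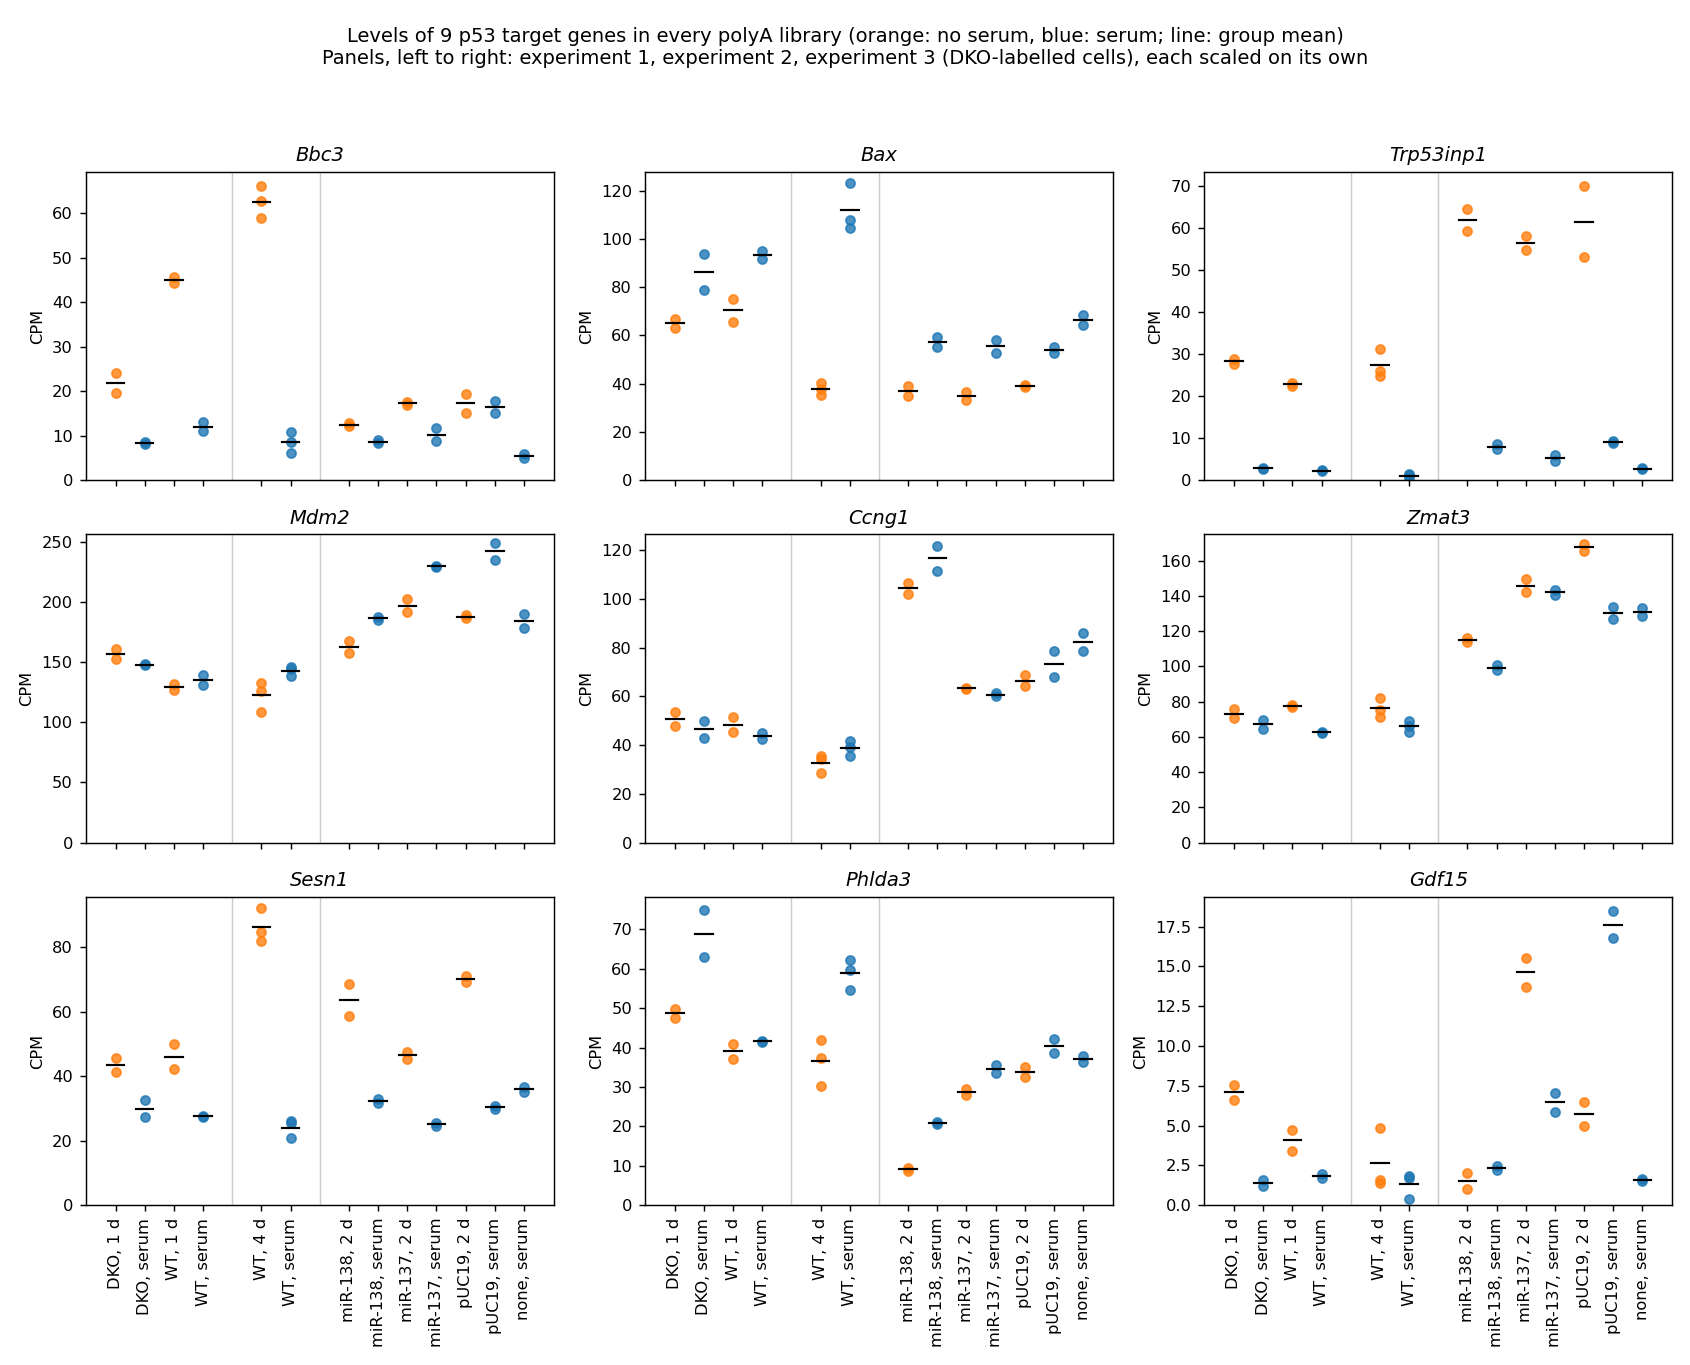
Levels in CPM (y axis of each panel, starting at 0) of the 9 detected p53 targets in each of the 28 polyA libraries, 1 point a library and a line at the group mean, with libraries without serum in orange and those in serum in blue. The Trp53inp1 points without serum stand above all serum points of the same experiment, while Bax shows the opposite order.

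Of the 10 members, 9 were detected well enough to be tested in every experiment. Pmaip1 had 0 counts in all 28 libraries, on both strands, among 624161262 assigned reads, which allows at most 0.0723 to 0.235 CPM in a single library for counting error alone. No level or change can be given for this apoptosis gene. Gdf15 had 9 to 307 reads per library, and its standard errors were the widest of the members in the withdrawal comparisons of the first 2 experiments.

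After serum withdrawal 3 members changed the same way in all 6 comparisons, which use separate libraries: Trp53inp1 and Sesn1 rose and Bax fell in WT cells at 1 and 4 days, in cells labelled DKO at 1 day, and at 2 days in cells given pUC19, miR-138 or miR-137. Bbc3 rose in 5 of the 6. The share of all genes that changed the same way in all 6 was not computed, so these counts have no background beside them. Mdm2 did not rise past the threshold in any of them and fell in 4. Its fall in WT cells at 4 days was lost when some single libraries were left out. The other falls were in transfected cells, where withdrawal and time since transfection cannot be told apart. RNA was measured in bulk, where fewer cells expressing a gene and less RNA per cell cannot be told apart. For all 9 members tested, 5 rose and 1 fell in WT cells at 1 day, where 40.7% of all 13630 genes changed. In cells labelled DKO at 1 day 4 rose and 2 fell, with 40.3% of all genes changed. In WT cells at 4 days 3 rose and 3 fell, with 70.9% of all genes changed. The members' median log2 change was 0.30, 0.13 and 0.21 in these 3 comparisons, beside 0.02, 0.01 and 0.04 over all genes. Without replicate 2 of the WT libraries at 1 day, 3 of the 6 calls there remained. The libraries without serum and those in serum did not overlap for 73.5%, 66.2% and 75.3% of all genes in these 3 comparisons, and for 78.5%, 81.7% and 83.6% at 2 days with pUC19, miR-138 and miR-137, so separate groups are what most genes show.

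Some markers of cell types also moved with withdrawal. The neuronal markers summed to 3844 to 3953 CPM in WT cells at 1 day, against 1508 to 1556 CPM in serum, and to 7460 to 9573 CPM at 4 days, against 1820 to 1877 CPM in serum. In cells labelled DKO these sums were 87.8 to 96.8 CPM at 1 day, against 63.3 to 63.8 CPM in serum. The sums hide mixed directions, and Chgb alone reached 8643 CPM. Of 7 neuronal markers tested at 1 day, 4 rose and 2 fell in WT cells, with log2 changes from -2.56 to 1.68. In cells labelled DKO 3 rose and 2 fell, with changes from -1.49 to 6.93. Of 3 fibroblast markers tested at 1 day, 1 rose in WT cells and 0 passed the threshold in cells labelled DKO. Of 5 glial markers tested, 0 passed in WT cells and 1 rose in cells labelled DKO. Of all genes 40.7% and 40.3% changed there. The fibroblast markers summed to 7.31 to 8.98 CPM in WT cells at 4 days, against 0.559 to 1.55 CPM in serum, with 3 of 3 tested higher and a median log2 change of 4.87. At 2 days with pUC19 they summed to 26.2 to 28.2 CPM, against 7.07 to 7.43 CPM in serum, with 4 of 5 higher and a median of 1.98, and 3 of 5 were higher with either mimic. The endothelial gene Pecam1 was higher without serum in all 6 comparisons. Of all genes 70.9% changed in WT cells at 4 days, and 59.7%, 63.3% and 65.8% at 2 days with pUC19, miR-138 and miR-137. The part of these markers in the members' changes was not tested.

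Trp53inp1 encodes a stress protein that promotes p53 phosphorylation and autophagy. It had 22.5 and 23.1 CPM in WT cells after 1 day, against 2.33 and 2.11 CPM in serum. In cells labelled DKO it had 29.0 and 27.6 CPM after 1 day, against 2.67 and 2.92 CPM in serum. After 4 days WT cells had 24.9, 31.4 and 26.0 CPM, against 1.19, 1.45 and 0.603 CPM in serum. The groups were far apart each time, with log2 changes of 3.37 ± 0.16 (adjusted p = 4.35e-09), 3.34 ± 0.16 (2.5e-09) and 4.64 ± 0.26 (1.93e-09), where ± is the standard error. In the third experiment it had 53.3 and 70.0 CPM at 2 days in pUC19 cells, against 9.29 and 8.80 CPM in serum, a log2 change of 2.76 ± 0.13 (7.09e-13). With the miR-138 mimic the values were 64.7 and 59.3 CPM at 2 days, against 7.40 and 8.52 CPM in serum, and with the miR-137 mimic 54.8 and 58.1 CPM, against 4.46 and 6.00 CPM. Those log2 changes were 2.96 ± 0.12 (9.67e-14) and 3.44 ± 0.15 (1.75e-13), and no serum library reached the lowest library without serum.

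Sesn1 encodes a sestrin, which restrains mTORC1 signalling when nutrients are short. In WT cells it had 42.0 and 50.0 CPM after 1 day, against 27.7 and 27.4 CPM in serum, and 91.9, 81.8 and 84.8 CPM after 4 days, against 25.4, 25.9 and 20.8 CPM in serum. The log2 changes were 0.74 ± 0.12 (adjusted p = 0.000178) and 1.84 ± 0.11 (3.74e-09). In cells labelled DKO it had 41.1 and 45.5 CPM after 1 day, against 32.4 and 27.2 CPM in serum, a log2 change of 0.54 ± 0.12 (0.00213). At 2 days its log2 change was 1.21 ± 0.08 (7.59e-11) in pUC19 cells, 0.97 ± 0.07 (7.11e-10) with miR-138 and 0.89 ± 0.08 (1.46e-08) with miR-137. Its groups did not overlap in any of the 6 comparisons, as was so for 66.2 to 83.6% of all genes in each.

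Bbc3 and Bax, both apoptosis genes, went opposite ways. Bbc3 had 45.7 and 44.3 CPM in WT cells after 1 day, against 13 and 11.0 CPM in serum, a log2 change of 1.91 ± 0.14 (adjusted p = 1.4e-07). After 4 days it had 59.0, 62.7 and 66.2 CPM, against 6.13, 10.7 and 8.66 CPM in serum, a log2 change of 2.87 ± 0.17 (3.5e-09). In cells labelled DKO it had 19.6 and 24.0 CPM after 1 day, against 8.09 and 8.51 CPM in serum, a log2 change of 1.40 ± 0.14 (3.5e-06). Every library without serum was above every serum library in these 3 comparisons, where the groups lay apart for 73.5%, 75.3% and 66.2% of all genes in that order. In the third experiment it rose with miR-138 (0.53, adjusted p = 0.00352) and miR-137 (0.75, 0.000175), but pUC19 cells had 15.1 and 19.4 CPM at 2 days, against 15 and 17.7 CPM in serum, and these overlapped (0.08 ± 0.14, 0.621).

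Bax had 75.2 and 65.6 CPM in WT cells after 1 day, against 95 and 91.6 CPM in serum, and 63.1 and 67.0 CPM in cells labelled DKO after 1 day, against 78.9 and 93.6 CPM in serum. After 4 days WT cells had 37.8, 35.1 and 40.1 CPM, against 104, 108 and 123 CPM in serum. Bax thus fell in each, with log2 changes of -0.41 ± 0.09 (adjusted p = 0.00324), -0.41 ± 0.09 (0.00343) and -1.57 ± 0.10 (5.4e-09). At 2 days its log2 change was -0.47 ± 0.08 (3.89e-05) in pUC19 cells, -0.64 ± 0.08 (5.29e-07) with miR-138 and -0.67 ± 0.08 (5.32e-07) with miR-137. The fall at 1 day in WT cells missed the threshold without replicate 2 of the 1-day libraries (adjusted p = 0.0682), and that in cells labelled DKO was -0.26 without replicate 2 in serum.

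**Figure D2:**
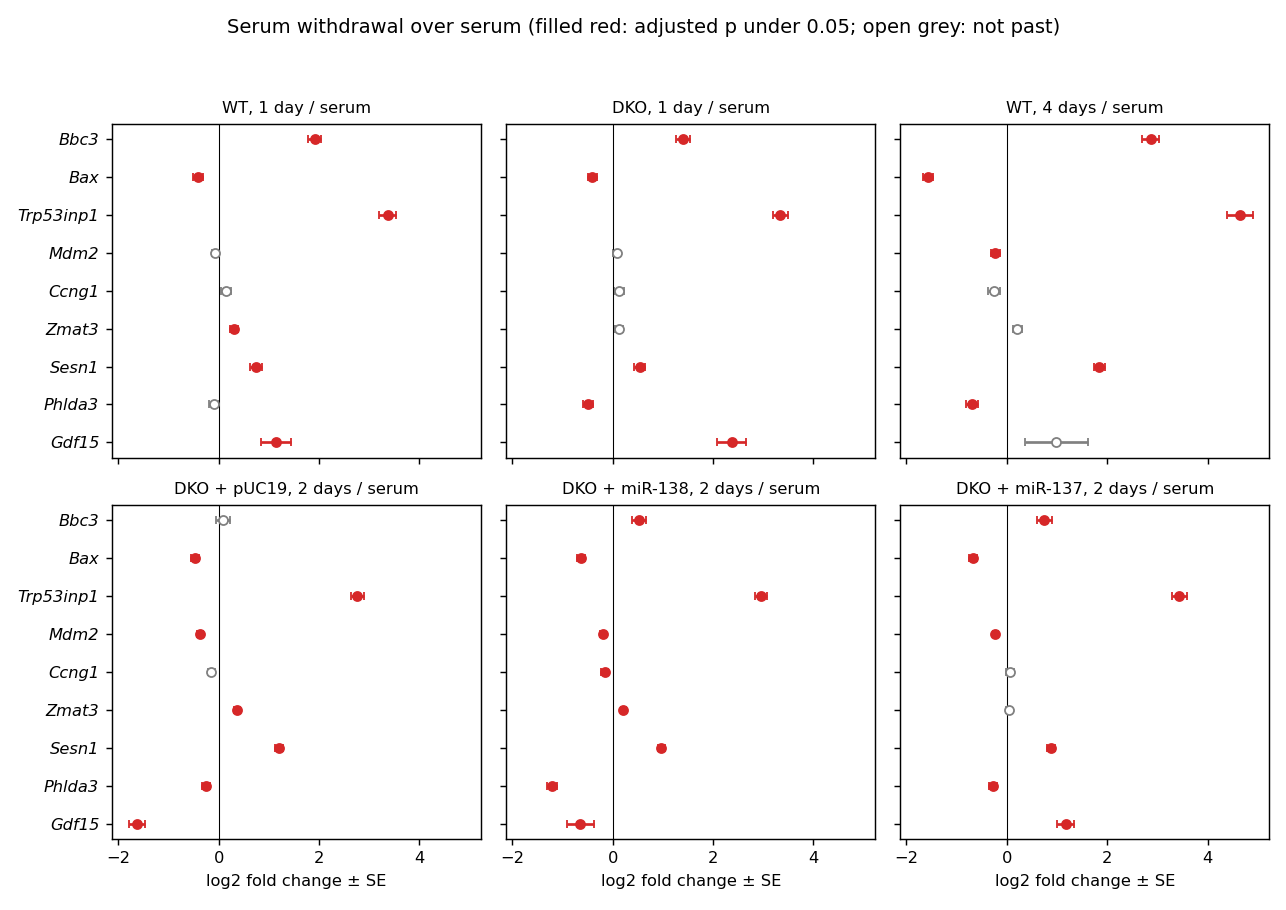
Log2 change without serum over serum (x axis) for each p53 target (rows), in 1 panel a comparison, with bars of 1 standard error and filled points for changes past an adjusted p of 0.05. Trp53inp1 and Sesn1 lie right of 0 and Bax left of 0 in all 6 comparisons.

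Gdf15 and Phlda3 did not follow 1 pattern. Gdf15 had 3.41 and 4.74 CPM in WT cells after 1 day, against 1.98 and 1.74 CPM in serum, and 7.57 and 6.62 CPM in cells labelled DKO, against 1.2 and 1.57 CPM in serum. It rose in both, by 1.14 ± 0.30 (adjusted p = 0.00711) and 2.37 ± 0.30 (2.67e-05) on the log2 scale. The WT call was lost without replicate 2 in serum (0.0617) or replicate 2 at 1 day (0.0974). After 4 days WT libraries spread from 1.42 to 4.83 CPM and overlapped those in serum (0.388 to 1.83 CPM), with a log2 change of 0.99 ± 0.63 that missed the threshold (0.173). That value ran from 0.20 to 1.30 with 1 library left out, and was lowest without replicate 1 at 4 days. Phlda3, which competes with AKT for membrane lipids, had 49.9 and 47.6 CPM in cells labelled DKO after 1 day, against 62.9 and 74.9 CPM in serum, and 42.0, 30.2 and 37.5 CPM in WT cells after 4 days, against 59.8, 54.7 and 62.2 CPM in serum. It fell in both (-0.50, adjusted p = 0.00104, and -0.69, 0.000189), and its change in WT cells at 1 day was -0.09 ± 0.10 (0.511).

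Mdm2, Ccng1 and Zmat3, which act in feedback on p53, in the cell cycle and in splicing, changed little. Mdm2 had 126 and 132 CPM in WT cells after 1 day, against 130.5 and 139 CPM in serum, and these overlapped (-0.06 ± 0.07, adjusted p = 0.499). After 4 days it had 132, 126 and 109 CPM, against 146 and 144 CPM in serum replicates 1 and 3 and a mean of 143 CPM over the 3 serum libraries, and no library overlapped. That fall of 0.22 on the log2 scale (0.028) was lost without replicate 1 in serum (0.0688) or replicate 3 at 4 days (0.133), and without the second of these it was -0.14. Ccng1, a cyclin that recruits a phosphatase to Mdm2, did not pass the threshold in the first 2 experiments (log2 changes 0.15, 0.13 and -0.25), although the 4-day value passed without replicate 3 in serum (-0.34, 0.0425) or replicate 1 at 4 days (-0.31, 0.0368). Zmat3, an RNA-binding splicing regulator, rose by 0.30 in WT cells at 1 day (0.0067), a call lost when any of the 4 libraries was left out (adjusted p from 0.0517 to 0.0588). Its changes in cells labelled DKO (0.13) and in WT cells at 4 days (0.21, 0.0506) did not pass, the second doing so without replicate 2 at 4 days (0.0408).

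In the third experiment 3 members rose and 4 fell in pUC19 cells 2 days after withdrawal (59.7% of all 12655 genes changed), 4 rose and 5 fell with miR-138 (63.3%), and 4 rose and 3 fell with miR-137 (65.8%). Gdf15 had 4.96 and 6.46 CPM at 2 days in pUC19 cells, against 16.8 and 18.5 CPM in serum, and fell by 1.63 on the log2 scale (5.31e-08). With miR-137 it had 15.5 and 13.7 CPM at 2 days, against 7.05 and 5.85 CPM in serum, and rose by 1.18 (3.97e-06). With miR-138 it had 1.04 and 2.02 CPM at 2 days, against 2.21 and 2.48 CPM in serum. That fall of 0.65 (0.0419) was lost without either serum library (0.0563 and 0.155) and without replicate 1 at 2 days (-0.21, 0.573), and was -1.16 without replicate 2 at 2 days. Mdm2 fell in all 3, by 0.37 (6.27e-06), 0.20 (0.00317) and 0.22 (0.00112), the miR-138 call being lost without replicate 2 at 2 days (0.0606). Phlda3 had 8.77 and 9.44 CPM at 2 days with miR-138, against 20.7 and 21.2 CPM in serum (-1.21 ± 0.10, 1.58e-09).

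Phlda3 also fell in pUC19 cells (-0.25, adjusted p = 0.0106) and with miR-137 (-0.27, 0.00777). The pUC19 call was lost without replicate 2 in serum (-0.16, 0.151) or at 2 days (0.089), and the miR-137 call without replicate 1 in serum (0.0683) or replicate 2 at 2 days (0.0679). Zmat3 rose in pUC19 cells (0.36, 5.57e-06) and with miR-138 (0.21, 0.00155), while its change with miR-137 was 0.04 ± 0.05 (0.54). Ccng1 passed the threshold with miR-138 (-0.16, 0.0445), but not without replicate 1 in serum (-0.09, 0.371) or without either library at 2 days (0.0711 and 0.228).

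Around these targets, Trp53 itself fell without serum in WT cells and in cells labelled DKO given a mimic. In WT cells it had 43.2, 60.3 and 68.3 CPM after 4 days, against 149, 157 and 163 CPM in serum (-1.45 ± 0.13, adjusted p = 2.78e-07), and 106 and 110.0 CPM after 1 day, against 129.6 and 136 CPM (-0.30 ± 0.07, 0.00357). In cells labelled DKO it fell at 2 days with miR-138 (-0.32 ± 0.05, 3.22e-05) and miR-137 (-0.29 ± 0.05, 6.79e-05), and its change with pUC19 was -0.10 ± 0.05 (0.0986). At 1 day it was -0.18 ± 0.07 (0.0521), which passed without replicate 1 in serum (-0.25, 0.00587). Cdkn1a rose in WT cells at 4 days (51.6, 32.8 and 37.2 CPM, against 12.3, 11.9 and 11.7 CPM in serum; 1.76, 4.08e-07), and in cells labelled DKO at 1 day (28.6 and 29.7 CPM, against 14.1 and 16.8 CPM; 0.92, 5.21e-05). In WT cells at 1 day it was at 15.6 and 15.7 CPM, against 17.7 and 17.3 CPM in serum, a difference that did not pass (-0.16, 0.358). Of a list of other p53-activated genes, 7 rose and 5 fell of 23 tested in WT cells at 1 day, 11 rose and 4 fell in cells labelled DKO, and 13 rose and 9 fell of 25 in WT cells at 4 days. All genes changed at 40.7%, 40.3% and 70.9% there, and this list at 52.2%, 65.2% and 88%. The list's median log2 change was 0.03, 0.44 and 0.50 in that order. Those that rose included the antiproliferative genes Tob1 (1.37) and Btg2 (2.16) in WT cells at 1 day, and those that fell included Gtse1 (-7.45) and Aen (-2.83) in WT cells at 4 days. Of 18 tested genes of p53 and its regulators, 11 fell and 5 rose at 4 days, among them the kinase gene Chek2 (-2.33).

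FoxO factors are active when growth factor signalling is low. Of their listed targets 5 of 8 rose in WT cells at 1 day, 6 in cells labelled DKO and 6 in WT cells at 4 days, and none of the list fell in these 3 comparisons. Of all genes 40.7%, 40.3% and 70.9% changed there, and 20.4%, 19.9% and 36.2% rose. Pik3ip1, an inhibitor of PI3 kinase, changed by 2.09, 1.19 and 4.70, and Ccng2, a relative of Ccng1 that is a FoxO target, by 1.40, 1.94 and 3.52 on the log2 scale in that order. Cell cycle genes that p21 and the DREAM complex repress fell, 10 of 10, 9 of 10 and 10 of 10, with median log2 changes of -0.97, -0.44 and -6.06. Of all genes 20.3%, 20.4% and 34.7% fell in that order. Plk1, a mitotic kinase, changed by -1.44, -0.88 and -6.12. The part of either list in the levels of the p53 targets was not tested.

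Between genotypes, Phlda3 was higher and Bbc3 lower in cells labelled DKO than in WT cells, both in serum and 1 day after withdrawal. These directions rest on the DKO label, which the Mir138-1 reads given above do not settle. In serum, 1 of the 9 members was higher and 1 lower, where 40.7% of all genes differed, and the members' median was 0.10 on the log2 scale, beside -0.01 over all genes. At 1 day 3 were higher and 1 lower, where 44.9% of all genes differed, with medians of 0.06 and 0.01. Phlda3 had 62.9 and 74.9 CPM in cells labelled DKO in serum, against 41.5 and 41.8 CPM in WT cells, and 49.9 and 47.6 CPM at 1 day, against 37.1 and 41.0 CPM. The differences were 0.73 ± 0.10 (adjusted p = 4.02e-05) and 0.32 ± 0.10 (0.0186), and the second was lost without replicate 1 at 1 day of the WT (0.104) or the DKO-labelled cells (0.118). Bbc3 had 8.09 and 8.51 CPM in cells labelled DKO in serum, against 13 and 11.0 CPM in WT cells (-0.53 ± 0.14, 0.00872). At 1 day it had 19.6 and 24.0 CPM, against 45.7 and 44.3 CPM (-1.04 ± 0.13, 1.41e-05). The serum call was lost without replicate 1 of the WT serum libraries (0.0999).

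At 1 day Mdm2 had 160.5 and 152 CPM in cells labelled DKO, against 126 and 132 CPM in WT cells (0.28 ± 0.07, adjusted p = 0.0039), and Gdf15 7.57 and 6.62 CPM, against 3.41 and 4.74 CPM (0.79 ± 0.28, 0.0305). The groups did not overlap for either gene, nor for 75.5% of all genes in this comparison. The Mdm2 call was lost without replicate 1 of the DKO-labelled cells at 1 day (0.0631), and the Gdf15 call without replicate 1 of the WT cells (0.201) or either DKO-labelled library (0.172 and 0.0625). Without replicate 1 of the DKO-labelled cells at 1 day only 1 member was called, and without replicate 1 of the WT cells 2. The other 5 members, Ccng1, Sesn1, Trp53inp1, Bax and Zmat3, did not pass in either condition. Of these, Bax was lower in serum without replicate 2 of the DKO-labelled serum libraries (-0.23, 0.0346, in place of -0.12), and Trp53inp1 was higher at 1 day with the compared libraries alone (0.31, 0.0158, in place of 0.0731). Cdkn1a was higher at 1 day, with 28.6 and 29.7 CPM in cells labelled DKO, against 15.6 and 15.7 CPM in WT cells (0.90 ± 0.13, 4.59e-05). The neuronal markers summed to 63.3 to 96.8 CPM in these cells labelled DKO, against 1508 to 3953 CPM in WT cells. Not all went this way: in serum 5 of 7 tested were lower and 2 higher, from -8.99 to 1.33 on the log2 scale. Of all genes 40.7% differed there. The fibroblast markers summed to 8.15 to 10.6 CPM in these cells labelled DKO, against 1.46 to 3 CPM in WT cells. The part of these markers in the members' differences was not tested.

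Whether withdrawal acted differently by genotype was tested as an interaction. It passed for 0 of the 9 members in edgeR and in DESeq2, where 9.72% of all genes passed in edgeR. At an unadjusted p under 0.05 there were 3 in edgeR: Gdf15 (1.23 ± 0.42, adjusted p = 0.0831), Phlda3 (-0.41 ± 0.14, 0.087) and Bbc3 (-0.52 ± 0.19, 0.116). One call appeared when a serum library of the cells labelled DKO was left out, Phlda3 without replicate 1 (0.00462) and Gdf15 without replicate 2 (0.0263). The count over all genes, 1325, was 2602 and 2292 without these libraries and 615 to 699 without any 1 of the other 6. The change of Cdkn1a was higher in cells labelled DKO than in WT cells by 1.08 ± 0.18 on the log2 scale (0.00179). All 12 tested targets of ATF4 and CHOP, factors of the amino acid and endoplasmic reticulum stress responses, had a positive interaction that passed. Slc7a11, a cystine transporter, had 86.4 and 97.8 CPM at 1 day in cells labelled DKO, against 7.87 and 8.90 CPM in serum, with an interaction of 3.10 (1.02e-07). The part of these genes in the Gdf15 values was not tested.

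Transfection with pUC19, a bacterial plasmid used as the control for the mimics, went with higher Gdf15, Trp53inp1, Bbc3, Mdm2 and Cdkn1a than in cells with no named transfection, all in serum and all labelled DKO. Of the 9 members 4 were higher and 2 lower, where 26.2% of all genes differed. The members' median log2 difference was 0.12, beside -0.04 over all genes. The cells with no transfection carry another title (DKO_2), so transfection and any difference between the cell batches or lines cannot be told apart.

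Gdf15 had 16.8 and 18.5 CPM in pUC19 cells, against 1.53 and 1.63 CPM in cells with no transfection, a difference of 3.47 ± 0.20 on the log2 scale (adjusted p = 1.46e-10). Trp53inp1 had 9.29 and 8.80 CPM in pUC19 cells, against 2.53 and 2.80 CPM (1.76 ± 0.20, 2.41e-06), and Bbc3 15 and 17.7 CPM, against 5.01 and 5.75 CPM (1.59 ± 0.16, 4.22e-07). Mdm2 had 249 and 235 CPM in pUC19 cells, against 189.5 and 178 CPM (0.40 ± 0.05, 1.88e-05). In each of these 4 genes both pUC19 libraries were above both others. The groups lay apart for 63% of all 12655 genes, with pUC19 above in 3361 and below in 4613. Cdkn1a, the p21 gene, had 56.0 and 60.3 CPM in pUC19 cells, against 19.1 and 18.6 CPM (1.62 ± 0.12, 8.16e-09).

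The other targets were lower or did not pass. Bax had 52.8 and 55.3 CPM in pUC19 cells, against 64.2 and 68.5 CPM with no transfection, and was lower (-0.30 ± 0.07, adjusted p = 0.006). Sesn1 had 30.8 and 29.8 CPM, against 35.0 and 36.6 CPM (-0.24 ± 0.08, 0.0315). The Sesn1 call was lost when any of the 4 libraries was left out (0.0693 to 0.152), and the Bax call without replicate 2 of the untransfected cells (0.0581) or replicate 1 of the pUC19 cells (0.0621). Ccng1 was at 78.5 and 67.9 CPM in pUC19 cells, against 86.0 and 78.7 CPM, and did not pass (-0.16 ± 0.07, 0.0978). It passed as lower without replicate 1 of the pUC19 cells (-0.27, 0.0249), and was -0.07 without their replicate 2. Phlda3 (0.12 ± 0.08, 0.277), Zmat3 (-0.01 ± 0.05, 0.936) and Trp53 (0.04 ± 0.05, 0.633) did not pass either. Over all genes the count called, 3321, was 1730 without replicate 1 of the untransfected cells and 1750 without replicate 2 of the pUC19 cells.

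Lists of other stress genes were read in the same comparison, where 26.2% of all genes differed. Of the ATF4 and CHOP list 10 of 12 were higher and 0 lower, with a median of 0.87. Ddit3, which encodes CHOP, had 60.6 and 62.2 CPM, against 4.90 and 5.75 CPM (3.52, adjusted p = 1.86e-13), and Atf3 56.9 and 57.4 CPM, against 4.43 and 4.68 CPM (3.65, 2.89e-11). The other p53-activated genes were split, 6 higher and 5 lower of 24, with Gadd45a (1.37) and Plk3 (0.57) among those higher. Of the interferon-stimulated genes 3 of 7 were higher. The chemokine gene Cxcl10 had 4.37 and 4.16 CPM in pUC19 cells, against 0.0527 and 0.0509 CPM. Of the cell cycle list 7 of 10 were lower, with a median of -0.25. The FoxO list had 2 of 8 higher and 0 lower, or 25%, a share near that of all genes. The part of any of these in the members' values was not tested.

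**Figure D3:**
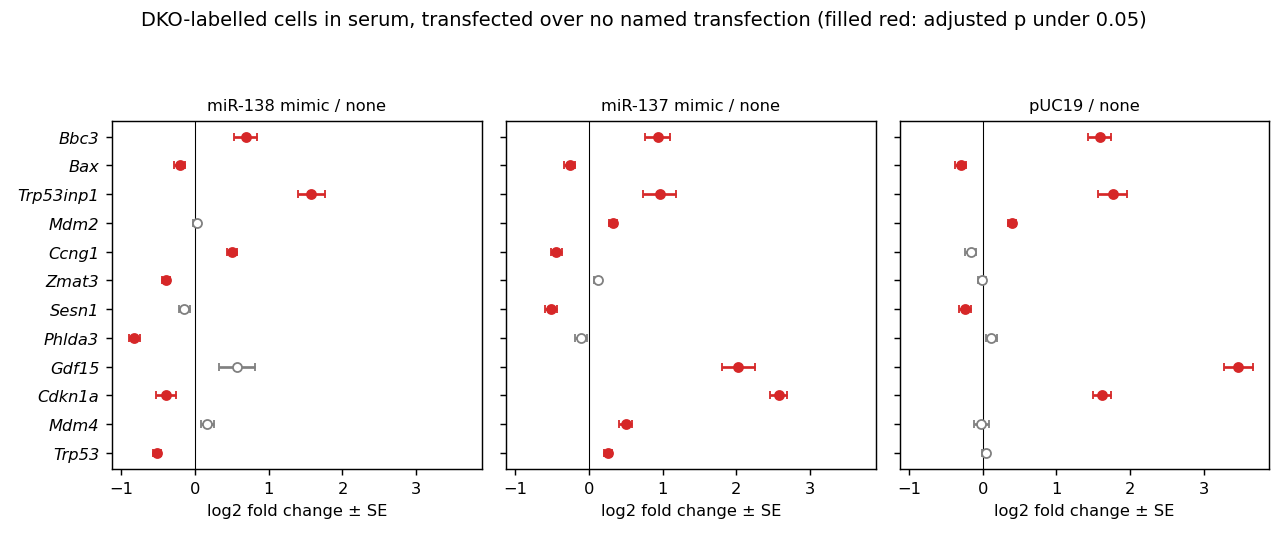
Log2 difference in serum (x axis) between cells labelled DKO given the miR-138 mimic, the miR-137 mimic or pUC19 and cells with no named transfection, for each p53 target (rows), with bars of 1 standard error and filled points past an adjusted p of 0.05. With pUC19, Gdf15 lies farthest right at 3.47, and Bax lies left of 0 in every panel.

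The same untransfected libraries serve as the control for the mimics, so the 3 comparisons share them and their values are given side by side. With the miR-138 mimic 3 members were higher and 3 lower than with no transfection (60.1% of all genes differed), and with the miR-137 mimic 4 were higher and 3 lower (51.2%). Gdf15 had 2.21 and 2.48 CPM with miR-138 and 7.05 and 5.85 CPM with miR-137, against 1.53 and 1.63 CPM with no transfection (0.57 ± 0.25, adjusted p = 0.0548, and 2.03 ± 0.23, 3.55e-07). The miR-138 value passed when low counts were kept (0.0255) or when other groups were left out of the fit (0.0428). Trp53inp1 was higher with both, by 1.58 ± 0.19 (5.43e-07) and 0.96 ± 0.22 (0.00131), and so was Bbc3, by 0.68 ± 0.16 (0.000954) and 0.93 ± 0.17 (0.000105). Both genes were thus above the untransfected cells whatever was transfected. Mdm2 was higher with miR-137 (0.32 ± 0.05, 4.19e-05), while its difference with miR-138 was 0.02 ± 0.05 (0.772).

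Ccng1 went opposite ways with the mimics. It had 122 and 112 CPM with miR-138 and 59.99 and 61.3 CPM with miR-137, against 86.0 and 78.7 CPM with no transfection (0.50 ± 0.07, adjusted p = 2.62e-06, and -0.44 ± 0.07, 4.34e-05). Phlda3 had 20.7 and 21.2 CPM with miR-138, against 36.3 and 38.0 CPM (-0.82 ± 0.08, 1.98e-08), and Zmat3 97.8 and 101 CPM, against 129 and 133 CPM (-0.40 ± 0.05, 1.6e-06). Sesn1 was lower with miR-137 (-0.52 ± 0.08, 3e-05). Bax was lower with both (-0.21, 0.0154, and -0.26, 0.00678), and both calls were lost without replicate 2 of the untransfected cells (0.135 and 0.0725) or replicate 2 of the mimic (0.17 and 0.106).

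Set against pUC19, the miR-138 mimic went with lower Phlda3, Gdf15, Zmat3, Mdm2 and Bbc3 and higher Ccng1, in serum and again 2 days after withdrawal. In serum, pUC19 cells had more Gdf15, Bbc3 and Mdm2 than cells with no transfection. Against the latter, these 3 genes were not lower with miR-138 (log2 differences of 0.57, 0.68 and 0.02). Phlda3 and Zmat3 were lower and Ccng1 higher against both controls in serum. That makes 1 member higher and 5 lower of 9 in each condition, where 56% of all genes differed in serum and 62% at 2 days. The members' median was -0.38 in serum and -0.21 at 2 days, beside 0.03 and 0.00 over all genes. Phlda3 had 20.7 and 21.2 CPM with miR-138 in serum, against 38.6 and 42.2 CPM with pUC19, and 8.77 and 9.44 CPM at 2 days, against 35.1 and 32.6 CPM. These differences were -0.94 ± 0.08 (adjusted p = 5.78e-09) and -1.90 ± 0.10 (3.81e-12), with groups apart in both, as for 78% and 78.8% of all genes. Gdf15 had 2.21 and 2.48 CPM in serum, against 16.8 and 18.5 CPM with pUC19 (-2.90 ± 0.17, 5.2e-11), and 1.04 and 2.02 CPM at 2 days, against 4.96 and 6.46 CPM (-1.92 ± 0.25, 1.38e-06).

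Ccng1 was the only member called higher with miR-138 than with pUC19. It had 122 and 112 CPM in serum, against 78.5 and 67.9 CPM with pUC19 (0.67 ± 0.07, adjusted p = 1.22e-07), and 107 and 102 CPM at 2 days, against 68.6 and 64.0 CPM (0.65 ± 0.07, 1.85e-07). Zmat3 had 97.8 and 101 CPM in serum, against 127 and 134 CPM (-0.39 ± 0.05, 3.08e-06), and 114 and 116 CPM at 2 days, against 166 and 169.5 CPM (-0.54 ± 0.05, 3.16e-08). Mdm2 differed by -0.38 ± 0.05 (4.52e-06) and -0.21 ± 0.05 (0.00248), and Bbc3 by -0.91 ± 0.14 (1.56e-05) and -0.46 ± 0.14 (0.00767). The Bbc3 call at 2 days was lost without replicate 1 of the miR-138 cells (0.0567) or replicate 2 of the pUC19 cells (-0.28, 0.134). The gene for p53 was itself lower, with 96.5 and 91.5 CPM in serum, against 139.8 and 136 CPM with pUC19 (-0.56 ± 0.05, 2.81e-08), and 76.0 and 74.3 CPM at 2 days, against 131 and 127 CPM (-0.78 ± 0.05, 3.53e-10). Cdkn1a was lower too (-2.02 ± 0.12, 4.74e-11, and -1.76 ± 0.17, 3.36e-08).

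Beside these, the genes for the p53 coactivators Crebbp (-1.16 in serum, -0.78 at 2 days) and Ep300 (-0.49, -0.37) were lower with miR-138 than with pUC19. Of 18 tested genes of p53 and its regulators 3 were higher and 8 lower in serum, and 2 higher and 9 lower at 2 days. Of 24 other p53-activated genes 5 were higher and 10 lower in serum, and 4 and 9 at 2 days. For both lists this is near the share of all genes that differed, 56% in serum and 62% at 2 days. The ATF4 and CHOP list was lower for all 12 of 12 in serum, with a median of -0.58, and 4 were higher and 6 lower at 2 days. Most of this list was higher with pUC19 than with no transfection in serum. Of the cell cycle list 9 of 10 were lower in serum and 8 of 10 at 2 days. The part of these lists in the members' values was not tested.

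The miR-137 mimic was compared with the same pUC19 libraries. Those in serum had more Gdf15, Trp53inp1, Bbc3 and Mdm2 than cells with no transfection, and so did the miR-137 libraries in serum. In serum 0 members were higher and 6 lower than with pUC19, where 45.6% of all genes differed, and at 2 days 1 was higher and 3 lower, where 42.7% differed. The members' medians were -0.27 and -0.12, beside -0.01 and -0.02 over all genes. Gdf15 had 7.05 and 5.85 CPM in serum, against 16.8 and 18.5 CPM with pUC19, and 15.5 and 13.7 CPM at 2 days, against 4.96 and 6.46 CPM. It was lower in serum (-1.44 ± 0.16, adjusted p = 5.13e-07) and higher at 2 days (1.36 ± 0.17, 2e-06). Sesn1 had 47.4 and 45.4 CPM at 2 days, against 69.0 and 71.1 CPM with pUC19 (-0.59 ± 0.07, 2.46e-06). In serum it differed by -0.27 ± 0.09 (0.013), a call lost without replicate 1 of the miR-137 (0.0884) or pUC19 libraries (0.081). Trp53inp1 (-0.80 ± 0.18, 0.00139) and Bbc3 (-0.66 ± 0.15, 0.00107) were lower in serum, and at 2 days did not pass (-0.12, 0.366, and 0.01, 0.963). The Trp53inp1 difference at 2 days passed without replicate 1 of pUC19 (-0.31, 0.0187) and was 0.09 without replicate 2 of pUC19.

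Cdkn1a was higher with miR-137, at 119 and 106 CPM in serum, against 56.0 and 60.3 CPM with pUC19 (0.96 ± 0.10, adjusted p = 3.45e-07), and 90.8 and 105 CPM at 2 days, against 16.2 and 23.1 CPM (2.33 ± 0.12, 1.27e-11). The smaller calls were less stable. Ccng1 was lower in serum (-0.28, 0.00468), but not without replicate 1 of pUC19 (-0.17, 0.138). Phlda3 was lower in serum (-0.22, 0.0268) and at 2 days (-0.24, 0.0216). The serum call was lost without replicate 2 of miR-137 (0.17) or pUC19 (0.208), and also without replicate 1 of miR-137. The 2-day call was lost without replicate 2 of miR-137 (0.152) or replicate 1 of pUC19 (0.158). Zmat3 was lower at 2 days (-0.20, 0.00398), but not without replicate 2 of miR-137 (0.0706), and without that library 2 members in place of 4 were called. The ATF4 and CHOP list had 2 genes higher and 9 lower of 12 in serum, and 10 higher and 1 lower at 2 days. Most of it was higher with pUC19 than with no transfection in serum. Of all genes 45.6% and 42.7% differed there. The part of this list in the Gdf15 values was not tested.

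**Figure D4:**
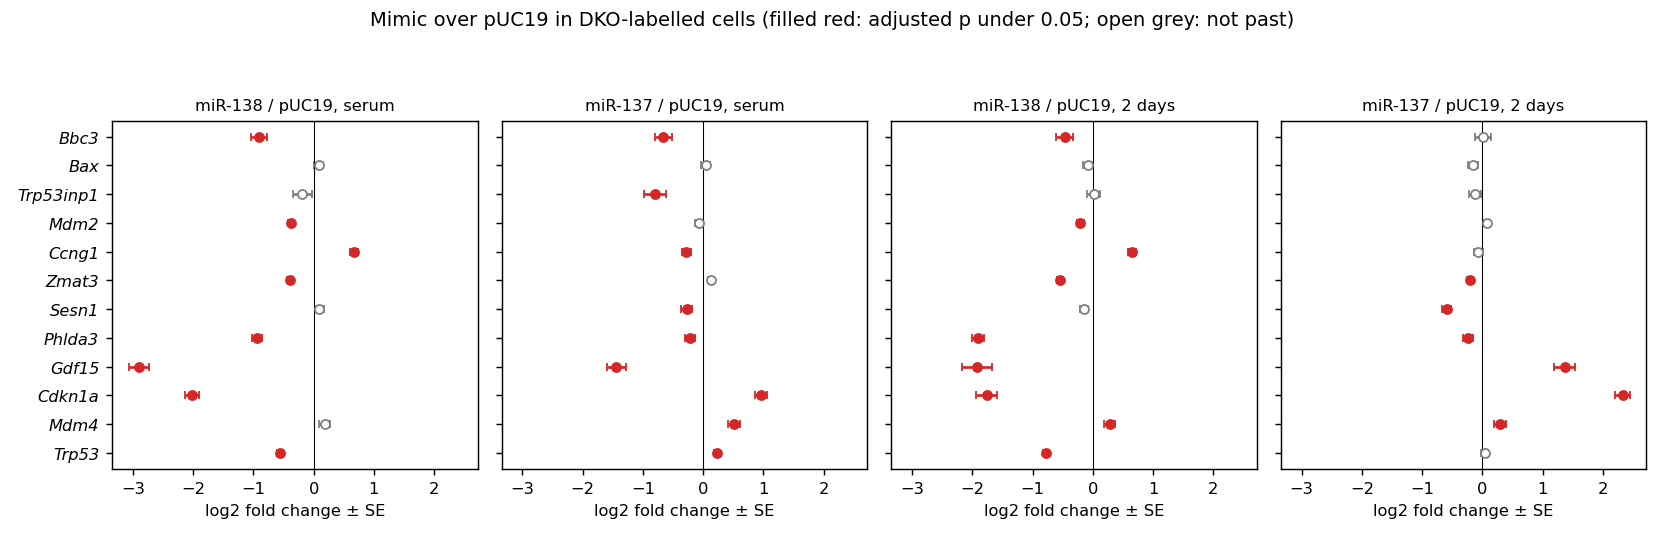
Log2 difference (x axis) between cells labelled DKO given a mimic and those given pUC19, in serum and 2 days after withdrawal, for each p53 target with Cdkn1a, Trp53 and Mdm4 (rows), with bars of 1 standard error and filled points past an adjusted p of 0.05. Cdkn1a lies at -2.02 and -1.76 with miR-138, and at 0.96 and 2.33 with miR-137.

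Comparing the mimics with each other, which needs no plasmid control, 3 members were higher and 4 lower with miR-138 than with miR-137 in serum (63.4% of all genes differed), and 2 higher and 5 lower at 2 days (61.6%). Ccng1 was higher with miR-138 in both (0.94 ± 0.07, adjusted p = 6.13e-10, and 0.72 ± 0.07, 5.53e-08), as was Sesn1 (0.37 ± 0.08, 0.000551, and 0.45 ± 0.08, 3.58e-05). Phlda3 was lower (-0.72 ± 0.08, 1.55e-07, and -1.66 ± 0.10, 2.4e-11), and so were Gdf15 (-1.46 ± 0.20, 2.49e-06, and -3.28 ± 0.22, 9.85e-11), Zmat3 (-0.52 and -0.34) and Mdm2 (-0.30 and -0.28). Trp53inp1 was higher in serum (0.61, 0.00472), but not without replicate 1 of miR-137 (0.113). Bbc3 was lower at 2 days (-0.47, 0.00772). Cdkn1a differed more than any member, by -2.97 ± 0.12 in serum and -4.09 ± 0.15 at 2 days.

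The genes beside the members followed other courses in the third experiment. Mdm4, the second brake on p53, had 42.7 and 39.1 CPM with miR-137 in serum, against 27.9 and 29.6 CPM with pUC19 (0.51 ± 0.10, adjusted p = 0.000203). Its differences at 2 days, 0.28 with miR-138 (0.0188) and 0.30 with miR-137 (0.0195), were lost without replicate 1 of pUC19 (0.14, 0.3, and 0.16, 0.271). They were also lost without replicate 1 of miR-138 (0.16, 0.258) and replicate 2 of miR-137 (0.125), and the miR-138 difference was 0.42 without replicate 2 of pUC19. In WT cells Mdm4 had 29.2, 35.3 and 28.6 CPM 4 days after withdrawal, against 19.7, 20.7 and 11.7 CPM in serum (0.84 ± 0.19, 0.0014). Trp53 was higher with miR-137 than with pUC19 in serum (0.22, 0.00147), while its difference at 2 days was 0.04 ± 0.05 (0.609). Cdkn1a fell after withdrawal in pUC19 cells (-1.57 ± 0.12, 1.41e-09) and with miR-138 (-1.32 ± 0.17, 1.24e-06), and its change with miR-137 was -0.20 ± 0.10 (0.0844). In serum, pUC19 cells already had more Cdkn1a than cells with no transfection, and the part of time since transfection was not tested. The miR-137 value kept its side of the threshold in 6 of 10 alternatives. Those in which it passed as a fall include no low-count filter (0.0375), the compared libraries alone (0.00954) and leaving out replicate 2 at 2 days (-0.31, 0.0428).

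Whether withdrawal acted differently with a mimic than with pUC19 was tested as an interaction. Withdrawal and time since transfection cannot be told apart in it. With miR-138, 1 member had a positive and 1 a negative interaction, where 27.8% of all genes passed. That of Phlda3 was -0.96 ± 0.13 (adjusted p = 1.33e-05), so its fall at 2 days was the larger with miR-138. That of Gdf15 was 0.98 ± 0.33 (0.0325), and it was lost without replicate 1 of miR-138 in serum (0.0882), replicate 2 of miR-138 at 2 days (0.45, 0.458), replicate 2 of pUC19 in serum (0.07) or replicate 1 of pUC19 at 2 days (0.0959). In each of these except the library at 2 days with miR-138, 1 member was then called; without that one Sesn1 passed in its place (0.0159). With miR-137, 3 members had a positive and 2 a negative interaction, where 23.3% of all genes passed. That of Gdf15 was 2.80 ± 0.23 (6.65e-08), which is the difference between a rise with miR-137 and a fall with pUC19. That of Zmat3 was -0.33 ± 0.07 (0.00327).

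The remaining 3 with miR-137 were close to the threshold. Trp53inp1 had an interaction of 0.68 ± 0.21 (adjusted p = 0.0259), which missed the threshold without replicate 1 of miR-137 in serum (0.198), replicate 1 of pUC19 in serum (0.0857), replicate 2 of miR-137 at 2 days (0.0688) or replicate 1 of pUC19 at 2 days (0.0645). Bbc3 had 0.67 ± 0.20 (0.0207), which missed it without replicate 2 of miR-137 in serum (0.129) or at 2 days (0.0711), replicate 2 of pUC19 in serum (0.083) or replicate 1 of pUC19 at 2 days (0.0992). Sesn1 had -0.32 ± 0.11 (0.0488), which missed it without any single one of the 8 libraries (0.0654 to 0.148). The count of 5 members was 2 without replicate 2 of miR-137 or replicate 1 of pUC19 at 2 days, and 3 without either miR-137 library in serum or replicate 1 of pUC19 in serum. The values of Gdf15 and Zmat3 are therefore the ones that held in every such run.

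Across the 13 group means, centred within each experiment, the targets did not move as 1 block. Sesn1 and Trp53inp1 ran together (Pearson r = 0.89), as did Bbc3 and Trp53inp1 (0.82), and Bax ran opposite to Trp53inp1 (-0.92), Sesn1 (-0.90) and Bbc3 (-0.83). Mdm2 ran with Phlda3 (0.73) and Gdf15 (0.60) and not with Bbc3 (-0.19) or Trp53inp1 (-0.38). Ccng1 and Zmat3, a pair of p53 targets, ran opposite to each other (-0.78). These are descriptions over 13 groups that share libraries within an experiment. The 5 genes most like Mdm2 among 10246 genes tested in all experiments were Rad9a (0.89), Zfp142 (0.89), Cpsf7 (0.87), Map1s (0.87) and Kctd6 (0.87), none of them a member. Over the 7 groups of the third experiment alone, 0 of these 5 were again among the top 5.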

How the data were processed

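PolyA RNA was measured in 28 libraries of mouse CAD cells. The deposited files hold raw counts per gene, which the authors made with STAR on mm9, per the submitters' processing notes, with versions and annotation not given in the sources used here. Libraries were strand-specific, per the labels' protocols, and column 4 of the counts was used (column 3 held 3.18 to 3.81% of the reads of both). Of 37310 identifiers 32620 matched a symbol. The 4-day WT libraries carry the genotype mir-138 DKO in 1 field and WT in their titles, and were analysed as WT. Cells with no transfection named were taken as untransfected. The design text gives the mimics in triplicate, and 2 libraries a group were analysed. The 6 small RNA libraries were not used.

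Each experiment was fitted on its own in edgeR 4.0.16 (R 4.3.3, limma 3.58.1, version 1.17.8 of data.table) with filterByExpr (minimum count 10, minimum total 15), TMM scaling and two-sided quasi-likelihood tests, adjusted by Benjamini-Hochberg over every gene tested in each of the 20 comparisons (3 interactions), at a false discovery rate of 0.05. The procedure was tested on simulated data. Alternatives were RLE scaling, DESeq2 1.42.0, no filter, unstranded counts, a replicate block, the compared libraries alone and each library left out. One listed marker is not reported here. The members and the other gene lists were chosen with earlier results of these data known. Named were all members with Trp53, Mdm4 and Cdkn1a, up to 4 genes a list and comparison with the lowest adjusted p past the threshold, and the 5 genes most like Mdm2. Promoter and miRNA sequences are from RefSeq. Figures and motif searches used Python 3.11.15, pandas 2.3.3 and matplotlib 3.10.9.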

Additional observations from a re-analysis of the deposited data

Results flagged for a closer look

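The effect of withdrawal differed between groups, by an interaction test in edgeR over all genes, for the following results. For Cdkn1a it was higher in cells labelled DKO than in WT cells by 1.08 on the log2 scale (adjusted p = 0.00179), where DKO-labelled libraries had 28.6 and 29.7 CPM at 1 day, against 14.1 and 16.8 CPM in serum, and WT libraries 15.6 and 15.7 CPM at 1 day, against 17.7 and 17.3 CPM in serum. With the miR-138 mimic against pUC19, the interaction was 0.98 for Gdf15 (0.0325), -0.96 for Phlda3 (1.33e-05) and -0.22 for Trp53 (0.0345). With the miR-137 mimic against pUC19, it was 2.80 for Gdf15 (6.65e-08), 1.37 for Cdkn1a (4.76e-06), 0.68 for Trp53inp1 (0.0259) and 0.67 for Bbc3 (0.0207), and -0.33 for Zmat3 (0.00327) and -0.32 for Sesn1 (0.0488). The interactions of both mimics share the pUC19 libraries. Trp53 missed the threshold without replicate 1 of miR-138 in serum (0.124), replicate 2 of miR-138 at 2 days (0.0686), replicate 2 of pUC19 in serum (0.0649) or replicate 1 of pUC19 at 2 days (0.0847).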

How the results depend on the processing

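Alternatives were RLE scaling, no low-count filter, unstranded counts, DESeq2, the compared libraries alone, the replicate number as a block and each library left out. Over the members with Trp53, Mdm4 and Cdkn1a, 2333 results kept their call, 106 lost it, 40 gained it and 65 changed sign with no call in either run, or had no adjusted p, and none reversed as a call. The count of members called moved by over 1.5 times in these settings: without the low-count filter the genotype interaction had 1 (Gdf15) in place of 0, with the compared libraries alone the DKO and WT serum comparison had 1 in place of 2 and the miR-138 interaction 1 in place of 2, and with unstranded counts the miR-137 interaction had 3 in place of 5. The cause was not tested, except that the compared libraries alone leave fewer libraries to estimate the spread. The likeness of the top gene to Mdm2 was 0.974 in the third experiment alone and 0.89 over all. With 1 library left out, the count ranged from 3 to 5 (WT 1 day, 6 in all), 1 to 3 (DKO against WT in serum, 2), 1 to 4 (at 1 day, 4), 0 to 1 (genotype interaction, 0), 2 to 4 (miR-137 against pUC19 at 2 days, 4), 1 to 3 (miR-138 interaction, 2) and 2 to 4 (miR-137 interaction, 5). A group left with 1 library is assumed to vary like the others. Over all genes, calls between pUC19 and no transfection split 1618 higher and 1372 lower with the compared libraries alone, against 40.9% higher in the main comparison. For the genotype interaction over all genes, leaving out a library gave 615 to 2602 calls.

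The replicate numbers showed little sign of pairing: correlations of same-numbered deviations ran from 0.0288 to 0.0579, -0.0364 to 0.0291 and -0.229 to 0.141 in the 3 experiments. Low values do not exclude a pairing, since deviations of single genes also hold counting error. With the number as a block, 7 members in place of 6 were called for pUC19 against no transfection, 8 in place of 7 for miR-137 against none, 7 in place of 6 for miR-137 against pUC19 in serum and 8 in place of 7 for pUC19 at 2 days, and the other counts kept their size. The added calls were Ccng1 for pUC19 against none (-0.17, 0.0378) and at 2 days (-0.15, 0.0447), and Zmat3 for miR-137 against none (0.048) and against pUC19 (0.0432). Beside the members, the block added the fall of Cdkn1a with miR-137 (-0.21, 0.0492) and, in cells labelled DKO at 1 day, the fall of Trp53 (0.0279) and the rise of Mdm4 (0.04). Depth limits Gdf15, with 9 to 307 reads per library, and Pmaip1.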

Other observations

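Other members of the BCL2 family, the proteins that set the threshold for mitochondrial apoptosis, were called about as often as all genes without serum. The BH3-only genes Hrk and Bmf rose in WT cells at 1 day (1.02 and 0.54 on the log2 scale), in cells labelled DKO at 1 day (1.54 and 0.56) and in WT cells at 4 days (2.72 and 2.59). The anti-apoptotic gene Bcl2 rose in the same 3 comparisons (0.39, 0.81 and 1.43). Bak1, a pore-forming relative of Bax, fell in WT cells at 1 day (-0.56) and at 4 days (-1.68). Of the list 3 rose and 1 fell of 12 in WT cells at 1 day, 3 and 2 of 12 in cells labelled DKO, and 5 and 4 of 11 in WT cells at 4 days. These are 33.3%, 41.7% and 81.8% of the list, beside 40.7%, 40.3% and 70.9% of all genes. In pUC19 cells in serum 2 were higher and 1 lower of 11 than with no transfection (27.3% of the list, beside 26.2% of all genes), with Hrk at 0.81. Between genotypes Bok, another relative of Bax, was higher in cells labelled DKO in serum (1.85) and at 1 day (1.98). With the miR-138 mimic Bok was lower than with pUC19 (-0.45 in serum and -1.46 at 2 days). All the changes named here passed the threshold in edgeR.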
